A study of Mus musculus with 2 samples.

Results

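The cells described here are the least proliferative of the mouse MLL-AF9 leukaemia cells that had no transcript of Ctss, the gene of the lysosomal protease cathepsin S. They were chosen by the counts themselves. In each of 2 single-cell libraries, cells with at least 500 detected genes, at most 10% of their unique molecular identifiers (UMIs, tags that mark single RNA molecules) in mitochondrial genes, and 0 UMIs of Ctss were ranked by a score. The score was the summed UMIs of 9 cell cycle genes divided by the cell's total UMIs. The 15% of cells with the lowest score in each library are called low-cycling cells, and they are set against the remaining Ctss-negative cells of the same library, called other cells. This gave 54 low-cycling cells among 361 Ctss-negative cells of the Jumonji library and 86 among 577 of the Renilla library, so 140 of 938 in all, out of 1183 cells that passed the filters and 1303 deposited barcodes.

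The cells carry MLL-AF9, a fusion oncoprotein of acute myeloid leukaemia, and Cas9, a nuclease directed by a single guide RNA. The Jumonji library came from a culture whose guide RNA was directed at the region of Jmjd1c that encodes the Jumonji domain of the histone demethylase JMJD1C. The Renilla library came from a culture whose guide RNA was directed at Renilla luciferase, which mouse cells lack. Both cultures grew in RPMI medium with 10% fetal bovine serum, 1% penicillin and streptomycin and 10 ng/ml of mouse interleukin-3 (IL-3), and the labels give neither a time after guide delivery nor whether the line was derived from 1 clone. There was 1 library per guide. No difference below therefore has a replicate check, and cells of a library are not replicates. The 95% interval of a ratio or level is exact and covers counting error only, not the extra spread between cells. The interval of a list median is an order-statistic one and describes the spread among the list's genes.

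A dividing cell passes from G1 through S phase, when DNA is copied, to G2 and mitosis. Transcripts for replication are made mainly under E2F transcription factors around the start of S phase, and transcripts for the spindle, kinetochores and chromosome condensation accumulate later, in G2 and mitosis, under the DREAM and MuvB complexes. A cell with few transcripts of either kind can be in G1, can have left the cycle, or can have been sampled thinly. Myeloid progenitors normally stop dividing as they mature into neutrophils and macrophages, and MLL-AF9 blocks that maturation.

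The promoter letters bound by these regulators are shown for 5 genes of the score and for Asns of the ATF4 list, since the letters are compared below between the gene lists. The stretches are the 200 bases before the RefSeq start site (build GRCm38.p6), read 5′ to 3′ on the gene's own strand. In the first 3, which belong to late cell cycle genes, capitals mark only TTTGAA on either strand, the letters of the cell cycle genes homology region to which MuvB binds. In Mcm5 and Mcm6, helicase genes of S phase, capitals mark TTGGCGC or TTCCCGC on either strand, which are letters of E2F sites. In Asns, a target of the transcription factor ATF4, capitals mark TGATGNAA on either strand, the C/EBP-ATF response element. The same stretches of Trib3 and Phgdh, also of that list, held no TGATGNAA and are not printed. Mki67 and Cdk1 also hold TTGGCGC and Asns also holds TTCCCGC, which are not capitalised there.
Mki67 (chr7:135716380-135716579, minus strand): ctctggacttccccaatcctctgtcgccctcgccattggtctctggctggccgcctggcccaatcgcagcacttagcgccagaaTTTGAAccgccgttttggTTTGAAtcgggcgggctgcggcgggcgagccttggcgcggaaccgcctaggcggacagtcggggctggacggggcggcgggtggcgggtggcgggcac
Top2a (chr11:99024190-99024389, minus strand): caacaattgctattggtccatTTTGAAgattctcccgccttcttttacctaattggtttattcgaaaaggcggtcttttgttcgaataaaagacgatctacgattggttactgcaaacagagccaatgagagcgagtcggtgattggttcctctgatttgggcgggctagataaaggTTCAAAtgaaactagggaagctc
Cdk1 (chr10:69352913-69353112, minus strand): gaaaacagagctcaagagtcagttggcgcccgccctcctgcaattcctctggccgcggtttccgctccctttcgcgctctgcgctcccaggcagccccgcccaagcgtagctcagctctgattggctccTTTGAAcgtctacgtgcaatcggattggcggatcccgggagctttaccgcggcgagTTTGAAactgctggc
Mcm5 (chr8:75109309-75109508, plus strand): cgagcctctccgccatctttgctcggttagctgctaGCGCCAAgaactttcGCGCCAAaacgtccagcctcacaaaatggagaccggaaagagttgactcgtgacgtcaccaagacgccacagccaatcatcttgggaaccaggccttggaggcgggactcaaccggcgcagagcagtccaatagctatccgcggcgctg
Mcm6 (chr1:128359706-128359905, minus strand): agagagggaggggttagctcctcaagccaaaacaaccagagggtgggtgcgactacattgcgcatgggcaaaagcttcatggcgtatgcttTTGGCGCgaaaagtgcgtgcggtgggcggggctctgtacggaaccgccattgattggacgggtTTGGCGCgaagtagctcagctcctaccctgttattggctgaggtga
Asns (chr6:7693210-7693409, minus strand): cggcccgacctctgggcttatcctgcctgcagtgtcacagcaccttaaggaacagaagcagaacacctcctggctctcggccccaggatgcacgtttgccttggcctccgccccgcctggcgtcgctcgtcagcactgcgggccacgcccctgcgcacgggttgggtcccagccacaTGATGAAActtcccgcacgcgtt

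TTTGAA began 116 and 98 bases before the start of Mki67, 179 and 23 bases before that of Top2a, and 71 and 15 bases before that of Cdk1. Of the 300-base windows around the start sites of G2 and mitosis genes outside the score, 41 of 55 (74.5%, 51 genes) held TTTGAA, against 6 of 44 windows (13.6%, 37 genes) of S phase genes, 3 of 37 windows (8.11%, 33 genes) of ribosome biogenesis genes, and 17.9% of all 32851 windows. The E2F letters showed the other order, with 23 of 44 windows (52.3%) of S phase genes, 8 of 55 (14.5%) of G2 and mitosis genes and 6.81% of all windows. Of the 9 score gene windows, 3 held TTTGAA and 4 held E2F letters, and of the ribosome biogenesis windows 6 of 37 (16.2%) held E2F letters. TGATGNAA was held by 9 of 28 windows (32.1%) of the ATF4 and serine synthesis list and by 3.97% of all windows. CCAAT, the letters of the nuclear factor Y site, was in 43 of 55 windows (78.2%) of G2 and mitosis genes, 23 of 44 (52.3%) of S phase genes and 37.4% of all windows. All 4 motifs were searched on both strands and counted separately, so that a window could hold several and matches could overlap. The matches describe letters only.

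The low-cycling cells held 950701 UMIs in the Jumonji library, against 7758308 in its other cells, and 1766740 in the Renilla library, against 11848666. They were shallower cells. Their median was 18052 UMIs and 3514 genes, against 25399 UMIs and 4443 genes in other cells of the Jumonji library, and 21045 UMIs and 3977.5 genes, against 24198 UMIs and 4394 genes in the Renilla library. Median mitochondrial shares differed little, at 2.70% in low-cycling cells against 2.55% in other cells of the Jumonji library and 3.42% against 3.45% in the Renilla library. Depth moved with the split in both libraries, and some results below are also given for cells within the low-cycling cells' 10th to 90th percentile of depth, a range that narrows the difference in depth without removing it. Scrublet, a doublet caller, marked none of the 140 low-cycling cells, and no barcode was shared by the libraries.

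**Figure D1:**
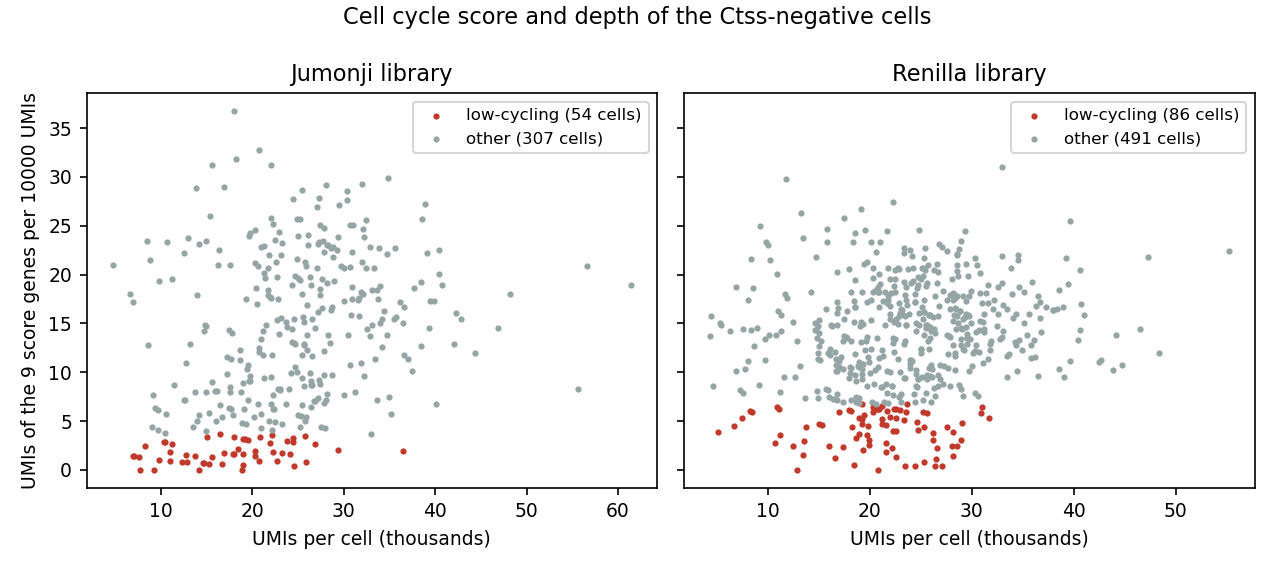
Each point is a Ctss-negative cell of the Jumonji library (left) or the Renilla library (right), placed by its total UMIs and by its UMIs of the 9 score genes per 10000 UMIs. The 54 and 86 low-cycling cells lie along the bottom, up to 3.63 in the Jumonji library and up to 6.76 in the Renilla library.

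Because the limit is a share of each library, it lay at different scores. The Jumonji low-cycling cells reached 3.63 score UMIs per 10000 and the Renilla low-cycling cells 6.76. The 3 Jumonji cells just inside the limit lay between 3.48 and 3.63, and the 3 just outside between 3.64 and 4.01. The 3 Renilla cells just inside lay between 6.59 and 6.76, and the 3 just outside between 6.80 and 6.90. There was no gap among these cells at either limit. Since the limit is a set share of each library, this cannot show whether the low-cycling cells are a separate class. The median low-cycling cell held 3 score UMIs in the Jumonji library, against 38 in other cells, and 8.5 in the Renilla library, against 37.

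The score genes chose the cells, so their levels are a description of that choice. Levels are in CPM, a gene's UMIs per 1000000 of the UMIs summed over a set of cells. Top2a, the topoisomerase that untangles replicated chromosomes, had 8.41 CPM in low-cycling cells and 307 CPM in other cells of the Jumonji library, and 19.2 CPM and 305 CPM in the Renilla library. Mki67, the proliferation antigen Ki-67 that coats mitotic chromosomes, had 8.41 CPM against 150 CPM in the Jumonji library and 16.4 CPM against 131 CPM in the Renilla library. Both late cell cycle genes were thus nearly, but not fully, missing from the chosen cells. Pcna, the sliding clamp of DNA polymerase, had 32.6 CPM against 199 CPM in the Jumonji library and 56.0 CPM against 143 CPM in the Renilla library. Rrm2, the regulated subunit of ribonucleotide reductase, had 8.41 CPM against 117 CPM in the Jumonji library and 28.9 CPM against 114 CPM in the Renilla library. All 9 score genes were lower in the low-cycling cells of both libraries. The smallest difference was that of Mcm6, a subunit of the replicative helicase, with log2 ratios of -1.56 in the Jumonji library and -0.72 in the Renilla library. The 4 marker genes of the label, Mki67, Top2a, Rrm2 and Pcna, are among the 9, so their levels are no check of it.

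Across all genes, more transcripts were lower than higher in the low-cycling cells. A gene was compared where the 2 sets together held at least 200 UMIs, and was called higher or lower at a 1.5-fold ratio of CPM, a rule of size and not a test. In the Jumonji library 206 of 4482 genes (4.6%) were higher and 1053 (23.5%) lower. In the Renilla library 109 of 5775 genes (1.89%) were higher and 660 (11.4%) lower. The counts of each list below are to be read beside these shares of all genes. At 2-fold, 28 genes (0.625%) were higher and 469 (10.5%) lower in the Jumonji library, against 14 (0.242%) and 208 (3.6%) in the Renilla library. Of 4406 genes compared in both libraries, 45 (1.02%) were higher in both and 314 (7.13%) lower in both. The 45 shared genes were 26.2% of the 172 genes higher in the Jumonji library and 53.6% of the 84 higher in the Renilla library, and the 314 were 29.9% of 1051 lower genes and 82.0% of 383. Within the 10th to 90th percentile of the low-cycling cells' depth, 70 of the 206 higher Jumonji genes and 86 of the 109 higher Renilla genes were still 1.5-fold higher, and 761 of the 1053 and 554 of the 660 lower genes still 1.5-fold lower. Over the same genes in that range, 107 were higher in the Jumonji library and 15 in both. The median log2 ratio of all genes was -0.15 in the Jumonji library and -0.11 in the Renilla library, and ratios below are not centred on it. Centred on it, 401 genes were higher and 785 lower in the Jumonji library, 193 and 460 in the Renilla library, and 95 and 222 in both. Since the cells were chosen by expression in these same cells, these counts describe the split and are no test of it. The lists of genes described below were also chosen with results from these data known.

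**Figure D2:**
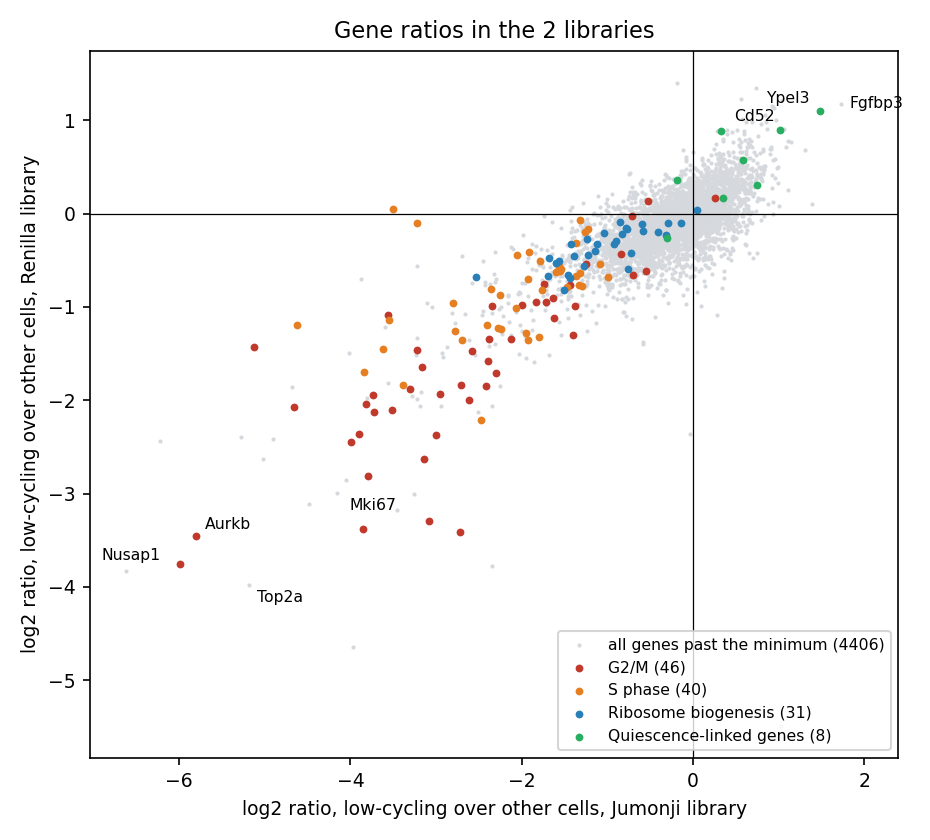
Each point is a gene with at least 200 UMIs in both libraries (4406 genes), placed by its log2 ratio of low-cycling over other cells in the Jumonji library (horizontal) and the Renilla library (vertical). Genes of the G2/M and S phase lists (without score genes) lie at the lower left, ribosome biogenesis genes to the left of 0, and Ypel3, Fgfbp3 and Cd52 at the upper right, while the score genes Top2a and Mki67 are in grey.

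Of the 12 genes with the firmest shared difference downwards, 6 were on the G2 and mitosis list, and 11 are described here. Nusap1, a spindle microtubule protein (chromosome 2, 119618298 to 119651244, plus strand, mm10), had 1 UMI in 54 Jumonji low-cycling cells, or 1.05 CPM, against 66.6 CPM in other cells. In the Renilla library it had 3.96 CPM in low-cycling cells and 53.4 CPM in other cells, a log2 ratio of -3.75 (95% interval -5.07 to -2.70). Aurkb, the Aurora kinase of the chromosomal passenger complex, had 1.05 CPM against 58.5 CPM in the Jumonji library and 6.23 CPM against 68.1 CPM in the Renilla library. Both genes were far lower in both libraries, and their few remaining UMIs make the exact ratio uncertain. Spc25, a subunit of the kinetochore complex NDC80, had log2 ratios of -3.85 (-5.48 to -2.62) in the Jumonji library and -3.38 (-4.39 to -2.53) in the Renilla library. Fbxo5, which encodes the inhibitor of the anaphase-promoting complex EMI1, had 3 UMIs in the low-cycling cells of each library, with log2 ratios of -3.97 (-6.26 to -2.41) and -4.64 (-6.93 to -3.09). Ccnf, which encodes cyclin F, had 0 UMIs in the Jumonji low-cycling cells. It was 8.46-fold lower than in other cells when the floor of 3 counts over the set is used, a point value and not a bound. Others of the 12 were Pbk, Prc1, Cenpf, Neil3, Cdca2 and the histone gene Hist1h2ap, with log2 ratios between -6.62 and -3.13 in the Jumonji library and between -3.83 and -2.44 in the Renilla library.

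The list of 60 G2 and mitosis genes outside the score was lower almost throughout. In the Jumonji library 43 of 46 compared members were at least 1.5-fold lower and none higher, with a median log2 ratio of -2.59 (order-statistic 95% interval -3.17 to -1.99). Of 54 compared Renilla members, 49 were lower and none higher, with a median of -1.68 (-2.02 to -1.34). Ccna2, which encodes cyclin A2, had 7.36 CPM in low-cycling cells against 103.6 CPM in other cells of the Jumonji library, and 28.3 CPM against 116.2 CPM in the Renilla library. Ube2c, the ubiquitin-conjugating enzyme of the anaphase-promoting complex, had 35.8 CPM against 234 CPM in the Jumonji library and 71.3 CPM against 255 CPM in the Renilla library. The spindle protein Tpx2 had 2 UMIs in the Jumonji low-cycling cells, with a log2 ratio of -5.13 (-8.18 to -3.27), and a ratio of -1.43 (-1.90 to -0.996) in the Renilla library. Smc4, a core subunit of condensin, went the other way, with 532 CPM in low-cycling cells and 443 CPM in other cells of the Jumonji library, and 494 CPM against 439 CPM in the Renilla library. Per cell, the list's summed level was under the median of other cells in 53 of 54 Jumonji and 77 of 86 Renilla low-cycling cells.

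S phase genes were lower too, and the libraries differed more in how much. In the Jumonji library 40 of 40 compared members of the 50-gene list were lower, with a median log2 ratio of -1.93 (-2.27 to -1.56). Of 48 compared Renilla members, 34 were lower and none higher, with a median of -0.79 (-1.01 to -0.62). Dut, the dUTPase that keeps uracil out of DNA, had 76.8 CPM in low-cycling cells and 407 CPM in other cells of the Jumonji library, and 195 CPM and 446 CPM in the Renilla library. Rpa2, a subunit of the single-strand DNA binding protein RPA, had 18.9 CPM against 97.2 CPM in the Jumonji library and 69.6 CPM against 122 CPM in the Renilla library. Mcm3, another helicase subunit, had log2 ratios of -1.59 (-2.05 to -1.17) and -0.62 (-0.86 to -0.39). The list's summed level was under the median of other cells in 54 of 54 Jumonji and 81 of 86 Renilla low-cycling cells. The size of the difference between libraries depended on the score limit. When the Jumonji limit was applied to both libraries, a choice made after seeing the data, 32 Renilla cells qualified, and their median log2 ratios were -1.76 for S phase genes and -2.32 for G2 and mitosis genes. A lower limit takes cells with fewer cell cycle transcripts by choice, so these lower medians follow from it. The cause of the difference between libraries was not tested.

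Histone transcripts did not move as 1 group. Most replication-dependent histone transcripts end without a poly(A) tail and are caught poorly by a library primed on poly(A). Hist1h2ap, an H2A gene, had 1.05 CPM in low-cycling cells against 103 CPM in other cells of the Jumonji library, and 6.79 CPM against 96.3 CPM in the Renilla library. H2afx, the variant histone phosphorylated at DNA breaks, had log2 ratios of -2.16 (-2.57 to -1.77) and -0.87 (-1.10 to -0.65). Hist1h2bc, an H2B gene, was higher, with 54.7 CPM in low-cycling cells and 15.2 CPM in other cells of the Jumonji library, where it missed the minimum of 200 UMIs, and 82.6 CPM and 13.8 CPM in the Renilla library. Its log2 ratio of 2.58 (2.25 to 2.91) in the Renilla library was over 146 low-cycling UMIs in 49 cells, of which 1 cell held at most 10. Of the compared histone genes, 8 of 11 were lower and none higher in the Jumonji library, and 4 of 13 were lower and 1 higher in the Renilla library. Over all compared genes, 23.5% and 11.4% were lower.

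**Figure D3:**
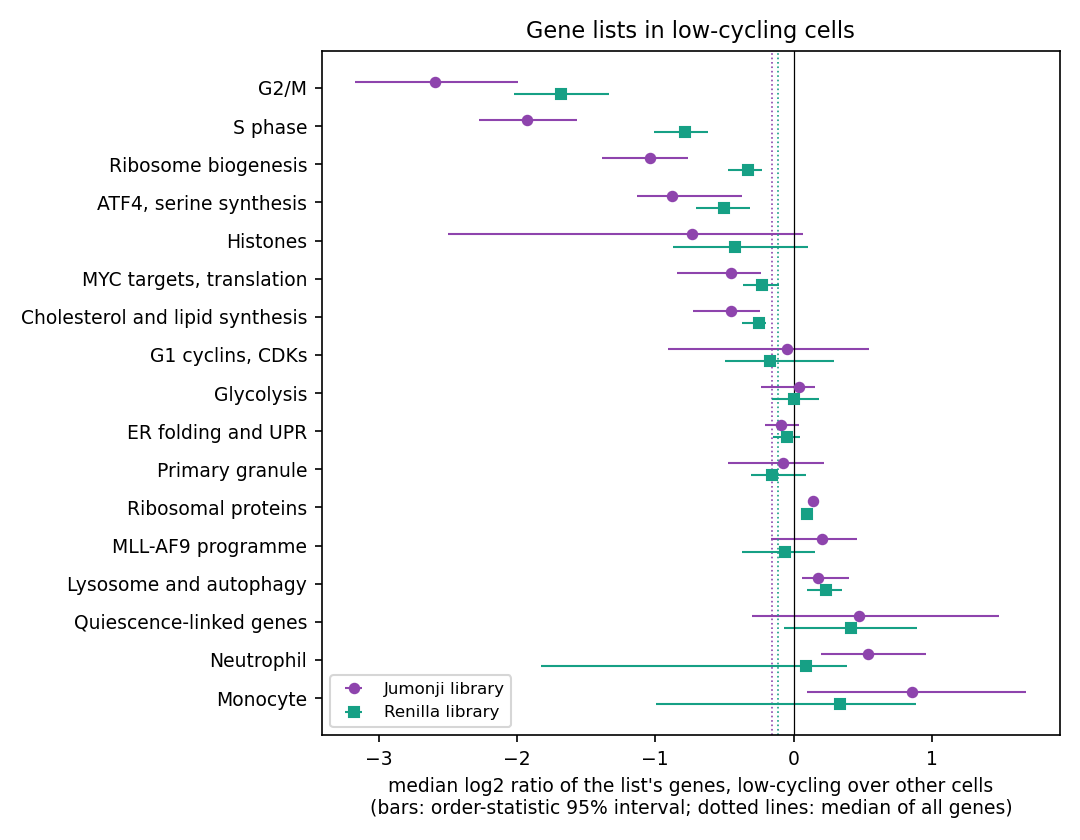
Points are the median log2 ratio of low-cycling over other cells for the compared genes of 17 lists, in the Jumonji library (circles) and the Renilla library (squares), with bars for the order-statistic 95% interval of the median over genes and dotted lines at the median of all genes. The G2/M and S phase lists have the lowest medians in both libraries. Ribosome biogenesis and the ATF4 list follow in the Jumonji library, and the ATF4 and histone lists in the Renilla library. The quiescence-linked, neutrophil and monocyte lists lie above 0 in the Jumonji library.

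Regulators of G1 and of exit from the cycle were split. The list of G1 cyclins, cyclin-dependent kinases (CDKs) and their inhibitors had medians of -0.05 (-0.91 to 0.55) in the Jumonji library and -0.17 (-0.49 to 0.29) in the Renilla library, and centring on the median gene turned the first to 0.11. Cdk4, the kinase of cyclin D, had 138 CPM in low-cycling cells and 258 CPM in other cells of the Jumonji library, and 248 CPM and 336 CPM in the Renilla library. Cdkn2a, which encodes the CDK inhibitor p16 and the p53 activator p19, had 49.4 CPM against 32.6 CPM in the Jumonji library and 91.7 CPM against 49.8 CPM in the Renilla library. Its log2 ratios were 0.60 (0.12 to 1.05) and 0.88 (0.62 to 1.13), both past 1.5-fold, but the first was 0.50 (-0.0042 to 0.97) without the 1 cell with the most of its UMIs. The CDK inhibitor gene Cdkn1a showed no such difference, with log2 ratios of -0.01 (-0.31 to 0.28) and 0.16 (-0.10 to 0.41). Of the p53 target list, none of 7 compared genes was higher in the Jumonji library and 1 of 9, Phlda3, in the Renilla library.

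Of the quiescence-linked genes, 4 of 8 compared members were higher in the Jumonji library and 3 of 10 in the Renilla library, with none lower in either. The medians were 0.47 (-0.30 to 1.48) and 0.41 (-0.07 to 0.90). Among all compared genes, 4.6% and 1.89% were higher. Ypel3, a gene linked to growth arrest in human cells (chromosome 7, 126776955 to 126780514, plus strand, mm10), had 299 CPM in low-cycling cells and 107 CPM in other cells of the Jumonji library, and 104 CPM and 48.8 CPM in the Renilla library. It was 2.80-fold and 2.13-fold higher, and held UMIs in 53 of 54 Jumonji and 59 of 86 Renilla low-cycling cells. Mxd4, which competes with MYC for its partner MAX, had 83.1 CPM against 41.0 CPM in the Jumonji library and 54.3 CPM against 29.2 CPM in the Renilla library. Mxi1, a MYC antagonist of the same family, was not higher, with log2 ratios of -0.30 (-0.94 to 0.29) and -0.27 (-0.74 to 0.18). Myc itself had 21.04 CPM against 42.3 CPM in the Jumonji library and 37.9 CPM against 49.1 CPM in the Renilla library. The antiproliferative gene Btg1 and the stress gene Gadd45a had log2 ratios of 0.59 and 0.67 in the Jumonji library and 0.57 and 0.59 in the Renilla library. Leaving out the 1 cell with the most UMIs brought Gadd45a under 1.5-fold in both libraries, at 0.56 and 0.50, and Btg1 in the Jumonji library, at 0.50.

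The 12 genes with the firmest shared difference upwards were Ypel3, Mxd4, Fgfbp3, Cd52, Lgals3, Igsf6, Rgs2, Cd84, Sepp1, Pold4 and 2 genes known here by their identifiers, 4931403G20Rik and RP23-299D2.2. Fgfbp3, a secreted protein that binds fibroblast growth factors, had 163 CPM in low-cycling cells and 49.1 CPM in other cells of the Jumonji library, and 55.5 CPM and 24.6 CPM in the Renilla library. Cd52, a short surface glycoprotein of leukocytes, had 638 CPM against 306 CPM in the Jumonji library and 143 CPM against 76.0 CPM in the Renilla library. Lgals3, the lectin galectin-3 of macrophages, had 471 CPM against 229 CPM in the Jumonji library and 85.5 CPM against 46.3 CPM in the Renilla library. The low-cycling level of the Renilla library stayed under the level of other cells of the Jumonji library for Cd52 and Lgals3. For Ypel3 and Fgfbp3 these levels lay close together. Pold4, a small subunit of DNA polymerase delta, was higher while the replication list was lower, with log2 ratios of 0.92 (0.68 to 1.15) and 0.71 (0.53 to 0.89). Rgs2, a regulator of G protein signalling, and Cd84, an adhesion receptor of the SLAM family, had log2 ratios between 0.94 and 1.14 in both libraries.

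**Figure D4:**
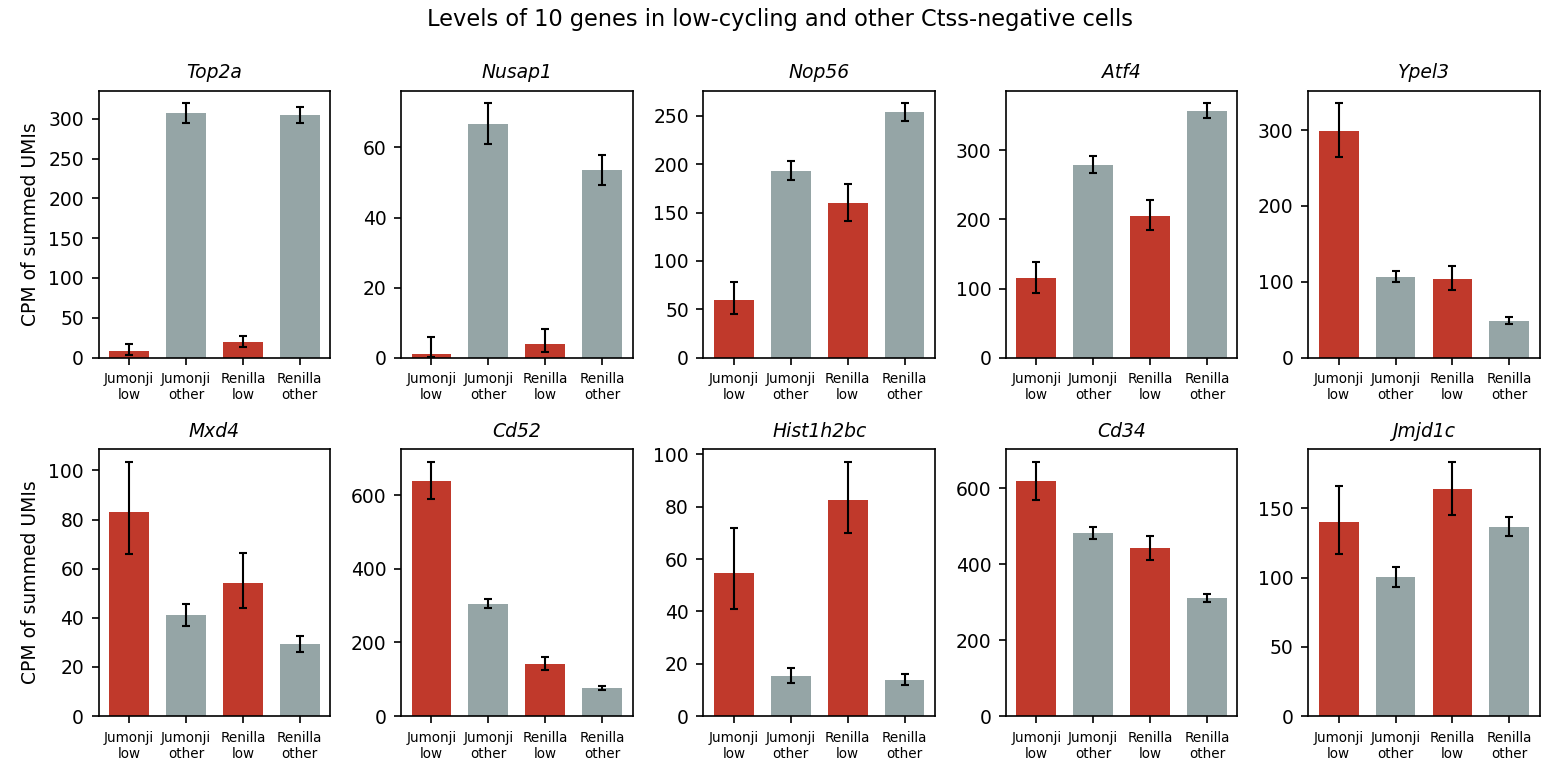
Bars are CPM of summed UMIs for 10 genes in low-cycling (red) and other (grey) Ctss-negative cells of the Jumonji and Renilla libraries, with exact Poisson 95% intervals and axes that start at 0. In both libraries the low-cycling bar is the shorter for Top2a, Nusap1, Nop56 and Atf4 and the taller for Ypel3, Mxd4, Cd52, Hist1h2bc, Cd34 and Jmjd1c, the last pair by less than 1.5-fold.

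Genes that build ribosomes were lower, while the ribosomal protein genes themselves were slightly higher. Of 39 ribosome biogenesis genes, 25 of 31 compared were lower in the Jumonji library and 8 of 35 in the Renilla library, with none higher. The medians were -1.04 (-1.39 to -0.77) and -0.33 (-0.48 to -0.23), and the first was -0.66 over the same genes in cells within the depth range of the low-cycling cells. Across all compared genes, 23.5% and 11.4% were lower. Nop56, a core protein of the particles that methylate ribosomal RNA, had 59.96 CPM in low-cycling cells and 193 CPM in other cells of the Jumonji library, and 160 CPM and 254 CPM in the Renilla library. Gnl3, the nucleolar GTPase nucleostemin, had log2 ratios of -1.56 (-2.11 to -1.06) and -0.51 (-0.75 to -0.29). Npm1, the abundant nucleolar chaperone, did not differ by more than its interval, at 0.05 (-0.03 to 0.14) and 0.03 (-0.02 to 0.09). Of the 81 compared ribosomal protein genes, 78 in the Jumonji library and 74 in the Renilla library had a ratio above 0, with medians of 0.14 (0.13 to 0.16) and 0.10 (0.08 to 0.12). Together they made 360495 CPM of the low-cycling cells and 325513 CPM of other cells in the Jumonji library, and 362183 CPM and 337453 CPM in the Renilla library. The elongation factor genes Eef2 and Eef1a1 had log2 ratios of 0.54 and 0.37 in the Jumonji library and 0.36 and 0.34 in the Renilla library, under the size rule. Their own list, of MYC targets and translation factors, had medians below 0 but a slightly higher summed level. Against 23.5% and 11.4% of all genes, 14 of 32 genes were lower in the Jumonji library and 4 of 33 in the Renilla library. None was higher in either. The list's medians were -0.45 (-0.84 to -0.24) and -0.23 (-0.36 to -0.11). Its summed level had log2 ratios of 0.03 (0.01 to 0.05) and 0.10 (0.09 to 0.12).

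Amino acid and serine synthesis genes under ATF4 were lower as well. In the Jumonji library 11 of 16 compared genes of that list were lower, with a median of -0.88 (-1.13 to -0.37), and in the Renilla library 5 of 18, with a median of -0.50 (-0.71 to -0.32), and none was higher in either. For all compared genes the lower shares were 23.5% and 11.4%. Atf4 itself had 115 CPM in low-cycling cells and 279 CPM in other cells of the Jumonji library, and 205 CPM and 357 CPM in the Renilla library. Phgdh, the first enzyme of serine synthesis, had 66.3 CPM against 145 CPM in the Jumonji library and 156 CPM against 230 CPM in the Renilla library. Asns, asparagine synthetase, whose promoter is printed above, had log2 ratios of -1.09 (-1.54 to -0.67) in the Jumonji library and -0.10 (-0.32 to 0.11) in the Renilla library, where centring turned it to 0.01. Mthfd2, the mitochondrial folate enzyme, had log2 ratios of -1.76 (-2.16 to -1.38) and -0.55 (-0.75 to -0.37). Of the cholesterol and lipid synthesis list, 8 of 20 compared genes were lower in the Jumonji library and 1 of 23 in the Renilla library. That Renilla count was a smaller share than the 11.4% of all genes. Glycolysis and endoplasmic reticulum folding genes had medians between -0.09 and 0.04 in both libraries, whose signs depended on the scaling. Under the common score limit, the Renilla medians became -0.88 for ribosome biogenesis and -0.82 for the ATF4 list.

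Along the score, the lowest cells differed for several lists from the cells next to them. Ctss-negative cells of each library were ordered by score and divided into 5 bins. These had 72 or 73 cells in the Jumonji library and 115 or 116 in the Renilla library, so the lowest bin is larger than the low-cycling set. From the lowest to the highest bin, the summed S phase level was 1395, 3131, 3997, 4010 and 4779 CPM in the Jumonji library and 2444, 3476, 3983, 3885 and 4521 CPM in the Renilla library. The summed ribosome biogenesis level was 3778, 5991, 5903, 5354 and 4204 CPM in the Jumonji library and 6225, 7484, 7080, 6750 and 6272 CPM in the Renilla library. It was thus highest in the second bin in both libraries and lower at both ends of the score. The quiescence-linked level was 967, 638, 573, 584 and 676 CPM in the Jumonji library and 545, 410, 445, 418 and 455 CPM in the Renilla library, highest in the lowest bin. The lowest bin had the lowest median depth, 18863 UMIs in the Jumonji library and 21045 UMIs in the Renilla library, and the bins were cut on genes that share these cells' counts, so the values are a description.

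**Figure D5:**
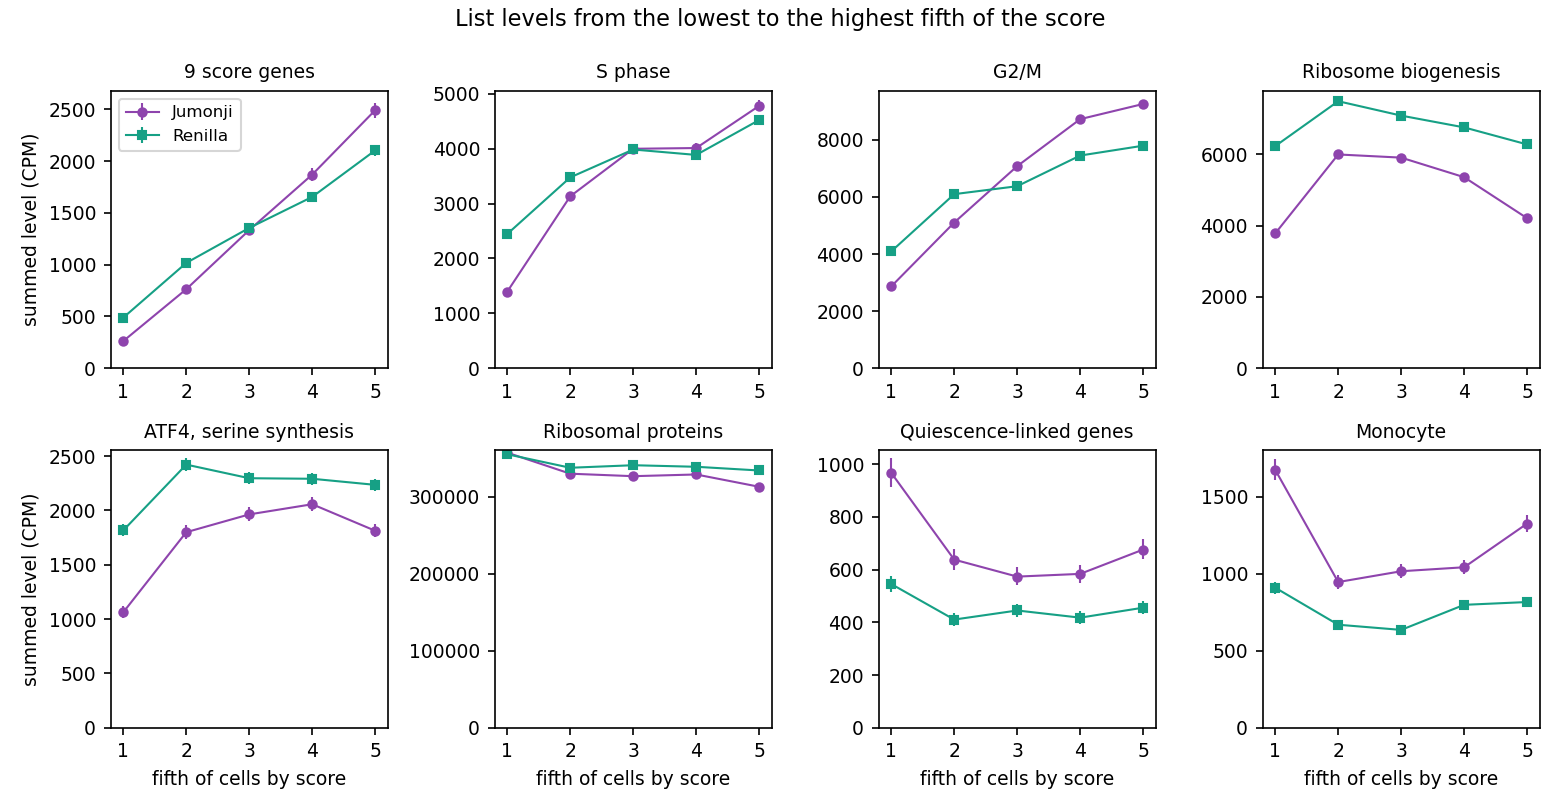
Summed CPM of 8 gene lists, with exact Poisson 95% intervals, in 5 bins of Ctss-negative cells from the lowest (1) to the highest (5) score, for the Jumonji library (circles) and the Renilla library (squares), on axes that start at 0. The ATF4 and ribosome biogenesis lists are lower in bin 1 than in bin 2 and are not highest in bin 5, and the quiescence-linked and monocyte lists are highest in bin 1.

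Several markers of maturing myeloid cells were higher in the Jumonji low-cycling cells, the lists differed among themselves in the Renilla ones, and a few cells carried much of the signal. Of the monocyte and macrophage list, 5 of 8 compared genes were higher in the Jumonji library and 2 of 8 in the Renilla library, where 1 was lower, with medians of 0.85 (0.10 to 1.68) and 0.34 (-0.99 to 0.88). The higher shares over all genes were 4.6% and 1.89%. From the lowest to the highest bin of the score, the list's summed level was 1676, 947, 1017, 1043 and 1327 CPM in the Jumonji library. Adgre1, the macrophage antigen F4/80, had 157 CPM in low-cycling cells and 73.7 CPM in other cells of the Jumonji library, and 59.9975 CPM and 36.5 CPM in the Renilla library. The chemokine gene Ccl6 had 110 CPM against 34.4 CPM in the Jumonji library, and under the minimum 6.23 CPM against 2.19 CPM in the Renilla library. Irf8, a transcription factor of the monocyte lineage, was not higher, with log2 ratios of 0.10 (-0.38 to 0.54) and -0.99 (-1.56 to -0.47). All 5 compared paired immunoglobulin-like and CD200 receptor genes were higher in the Jumonji library, with a median of 1.35 (1.04 to 1.59), and none reached the minimum in the Renilla library, where the whole list had 70 UMIs, or 39.6 CPM, in low-cycling cells against 148 UMIs, or 12.5 CPM, in other cells. The log2 ratio of the list's summed level was 1.33 (1.18 to 1.49) in the Jumonji library and 1.67 (1.23 to 2.09) in the Renilla library. Pirb, an inhibitory member that may share reads with its near-identical relatives such as Pira2, had 75.7 CPM against 32.1 CPM in the Jumonji library.

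Of the neutrophil and secondary granule list, 6 of 14 compared genes were higher and none lower in the Jumonji library, with a median of 0.54 (0.20 to 0.95). In the Renilla library 2 of 13 were higher and 4 lower, with a median of 0.09 (-1.83 to 0.38), which equal weight per cell turned to -0.12. Shares over all genes were 4.6% higher in the Jumonji library, and 1.89% higher and 11.4% lower in the Renilla library. From the lowest to the highest bin of the score, the list's summed level in the Jumonji library was 5957, 3593, 3283, 3250 and 6371 CPM. It was thus highest in the cells with the highest score, and a high level was not particular to the lowest cells. The calprotectin genes S100a8 and S100a9 had log2 ratios of 0.29 (0.17 to 0.40) and -0.04 (-0.18 to 0.11) in the Jumonji library, and -1.09 (-1.49 to -0.71) and -2.36 (-3.15 to -1.67) in the Renilla library. Without the 1 low-cycling cell with the most UMIs of each, the ratios of S100a8 and S100a9 were 0.0097 and -0.37 in the Jumonji library and -2.66 and -4.11 in the Renilla library, where that cell held 40 of 60 and 12 of 17 UMIs. Ngp, a neutrophil granule protein gene, had 88.4 CPM in low-cycling cells against 43.4 CPM in other cells of the Jumonji library, and 0.566 CPM against 25.4 CPM in the Renilla library. Lyz2, which encodes lysozyme, had 261 CPM against 135 CPM in the Jumonji library and 76.4 CPM against 58.6 CPM in the Renilla library. Single cells weighed heavily here. Prg2, an eosinophil granule protein gene, had 130 UMIs in the Jumonji low-cycling cells, of which 1 cell held 119, and its log2 ratio was 3.41 with that cell and -0.14 without it. In the Renilla library 1 cell held 97 of the 490 low-cycling UMIs of Stfa1, a cystatin of the stefin family with near-identical copies, whose log2 ratio was 1.40 with that cell and 1.10 without it. When low-cycling and other cells were kept only within the 10th to 90th percentile of the low-cycling cells' depth, the neutrophil list's median over the same genes was -0.00026 in the Jumonji library. Without the cells in each library's top 10% of maturation genes, the Renilla ratios of Ngp and S100a9 turned to 0.39 and 0.33. Lymphoid, erythroid and dendritic cell markers were near 0 in the low-cycling cells, with 1 UMI of 7 lymphoid markers in each library, 2 and 9 UMIs of 6 erythroid markers in the Jumonji and Renilla libraries, and 4 and 2 UMIs of 6 dendritic cell markers, among which Siglech, Itgax and H2-Eb1 were at 0 in both. Of 5 stromal and endothelial markers there were 2 UMIs in the Jumonji and 0 in the Renilla low-cycling cells. The 6 mast cell and basophil markers summed to 129 CPM in low-cycling cells against 97.6 CPM in other cells of the Jumonji library, and to 168 CPM against 110 CPM in the Renilla library, with Fcer1a, Cma1 and Prss34 at 0 in the low-cycling cells of both. The 5 megakaryocyte markers summed to 33.7 CPM against 17.8 CPM and to 20.9 CPM against 5.23 CPM. The 8 eosinophil markers, Prg2 among them, summed to 257 CPM against 89.5 CPM and to 66.8 CPM against 32.3 CPM. In the Jumonji library 1 low-cycling cell held 164 of their 244 UMIs, and the median was 1 UMI in both sets. In the Renilla library 1 low-cycling cell held 25 of 118 UMIs, and the median was 0 in both sets. The part of such cells in the other results was not tested.

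The primary granule genes of promyelocytes mostly differed by less than the size rule. In the Jumonji library 2 of 14 compared genes were higher and 1 lower, and in the Renilla library none was higher and 2 of 13 lower. Over all genes, 4.6% were higher and 23.5% lower in the Jumonji library, and 1.89% and 11.4% in the Renilla library. Elane, neutrophil elastase, had 612 CPM in low-cycling cells and 881 CPM in other cells of the Jumonji library, and 1500.5 CPM and 1862 CPM in the Renilla library. Mpo, myeloperoxidase, had 38.9 CPM against 77.5 CPM in the Jumonji library and 374 CPM against 640 CPM in the Renilla library, with log2 ratios of -0.99 (-1.51 to -0.51) and -0.78 (-0.89 to -0.66). Without the mitochondrial filter, which adds barcodes with a high mitochondrial share, its Jumonji ratio was 0.22. In that library 1 cell held 21 of the 37 low-cycling UMIs of Mpo, and without it the ratio was -2.17. Leaving out the 1 cell with the most UMIs of each gene likewise brought Elane, Ctsg and Ms4a3 past 1.5-fold lower in the Jumonji library, at -0.73, -1.28 and -0.77, against -0.52, -0.48 and -0.46 with it. The list's medians were -0.08 (-0.48 to 0.22) and -0.15 (-0.31 to 0.09), and centring on the median gene turned the first to 0.08. Cd34, a surface marker of stem and progenitor cells, had 617 CPM against 481 CPM in the Jumonji library and 442 CPM against 311 CPM in the Renilla library, under the size rule in both. The stem and progenitor list it belongs to had medians of 0.25 (-0.45 to 0.65) over 7 genes and -0.11 (-0.19 to 0.10) over 13, with 1 gene higher in the Jumonji library, none in the Renilla library and none lower in either. Of the genes that MLL-AF9 maintains, Meis1 had log2 ratios of 0.65 (0.37 to 0.92) in the Jumonji library and 0.05 (-0.17 to 0.27) in the Renilla library, and that list's medians were 0.21 (-0.17 to 0.46) and -0.06 (-0.37 to 0.15), the second of which centring turned to 0.05. Lysosome and autophagy genes were slightly higher, with medians of 0.17 (0.06 to 0.40) and 0.24 (0.09 to 0.35). Among them Ctsd, the lysosomal protease cathepsin D, had 306 CPM against 192 CPM in the Jumonji library and 142 CPM against 109 CPM in the Renilla library.

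IL-3 signalling genes differed little as a list, with medians of 0.26 (0.01 to 0.39) and 0.16 (-0.16 to 0.47) and 2 of 12 genes higher in each library. In both libraries these were Cish, a feedback inhibitor induced by STAT5, and Lyn, a SRC family kinase, though Cish was at 0.54 in the Renilla library without 1 cell. Among all genes, 4.6% were higher in the Jumonji library and 1.89% in the Renilla library. Cish had 102 CPM in low-cycling cells and 61.0 CPM in other cells of the Jumonji library, and 39.1 CPM and 25.3 CPM in the Renilla library.

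Jmjd1c, the targeted gene (chromosome 10, 67096125 to 67256326, plus strand, mm10), had more transcripts in low-cycling cells. It had 140 CPM in low-cycling cells and 100.2 CPM in other cells of the Jumonji library, with a log2 ratio of 0.48 (0.21 to 0.75), and 164 CPM and 137 CPM in the Renilla library, with a ratio of 0.26 (0.07 to 0.44). Jumonji over Renilla, its log2 ratio was -0.23 in low-cycling cells and -0.45 in other cells. A small Cas9 edit need not change a 3′ transcript count, so this checks the guide only weakly. Both differences were under 1.5-fold.

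Between the libraries, the low-cycling cells with the Jumonji guide had higher levels of Cd52, Plek and Serpina3g and lower levels of Mpo and Ctsg than those with the Renilla guide. The primary granule list as a whole was split, with 3 of 13 compared genes higher and 5 lower and a median log2 ratio of -0.32 (-1.93 to 1.301). Genes with at least 100 UMIs over the 2 sets were compared, and a 2-fold ratio was the rule. Of 3064 genes, 119 (3.88%) were higher and 150 (4.9%) lower in the Jumonji low-cycling cells, against 268 (3.22%) higher and 87 (1.05%) lower of 8320 genes in other cells. Centred on the median gene, the low-cycling counts were 151 higher and 119 lower. Of the genes compared in both, 75 were higher in both kinds of cell, which is 63.0% of the 119 and 81.5% of 92, and 8 were lower in both, which is 5.33% of the 150 and 88.9% of 9. Cd52 had 638 CPM in Jumonji low-cycling cells against 143 CPM in Renilla low-cycling cells. Plek, the platelet and leukocyte protein pleckstrin, had 133 CPM against 10.8 CPM, and Serpina3g, a serine protease inhibitor, had 175 CPM against 14.7 CPM. Mpo had 38.9 CPM against 374 CPM, and Ctsg, cathepsin G, had 71.5 CPM against 375 CPM. For these 5 genes the Jumonji over Renilla log2 ratio had the same sign in other cells. The share of Ctss-positive cells also differed. They were 214 of 575 kept Jumonji cells (37.2%) and 31 of 608 kept Renilla cells (5.10%), a share that moved with these genes and whose part in them was not tested. Zero UMIs of Ctss do not show that a cell lacked it, least of all in a shallow cell.

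At 1 common score limit, few of the lower calls between the libraries were both still compared and still 2-fold apart. With the limit of the Jumonji library in both, the 32 Renilla cells left 1891 genes to compare, of which 65 (3.44%) were higher and 16 (0.846%) lower. Of the 119 higher genes, 93 were still compared and 55 were still at least 2-fold higher. Of the 150 lower genes, 35 were still compared and 8 were still at least 2-fold lower. Among the 16 were Elane, Ctsg, Mpo and Ms4a3 of promyelocytes, and also Hist1h2bc and Cdkn2a. The S phase list's median log2 ratio, Jumonji over Renilla, was -0.97 (-1.36 to -0.59) over 20 genes at the separate limits and -0.12 (-0.36 to 0.18) over 4 genes at the common limit. For ribosome biogenesis it was -1.06 (-1.26 to -0.68) over 24 genes and -0.34 (-0.88 to -0.22) over 11, against -0.37 (-0.45 to -0.30) over 39 genes in other cells. For the neutrophil list it was 1.86 (1.301 to 3.57) over 12 genes and 1.77 (0.90 to 5.23) over 11. Tipin, a replication fork protein, and Srsf7, a splicing factor, had log2 ratios of -1.58 and -1.53 at the separate limits, against -0.16 and -0.12 in other cells.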

How the data were processed

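The authors deposited 1 matrix of raw UMI counts per library. Per the labels' protocols these were 10x Genomics Chromium 3′ version 2 libraries. The submitters' processing notes name Cell Ranger 1.3.1, and mm10 as the genome build. How barcodes were called cells, and the annotation release, were not given in the sources used here. Filters, score and sets of cells are those given at the opening of the results, and Scrublet doublets (scanpy 1.11.5) were kept (Python 3.11.15, numpy 2.4.6, scipy 1.17.1, pandas 2.3.3). UMIs were summed over each set and divided by its total (CPM). Log2 ratios carry the exact conditional binomial 95% interval, sums the exact Poisson interval and shares the Clopper-Pearson interval. A count of 0 was set to 3 over the set. Medians over a list carry an order-statistic interval. No test was made, since each guide had 1 library.

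Low-cycling cells and other cells were compared for genes with at least 200 UMIs at 1.5-fold and 2-fold, and libraries for genes with at least 100 UMIs at 2-fold. The ratio and its interval were run on simulated sums of counts with Poisson error alone. The simulation held no spread between cells and no choice of cells by expression, so it does not test those. The members and the gene lists (33 lists, 760 genes, 12 not in the files) were chosen with earlier results of these data known. Named genes were the score genes, Ctss and Jmjd1c; the 12 higher and 12 lower genes shared by both libraries and the 12 and 12 between libraries, ranked by the interval bound nearest to 0; the 6 and 6 of each library; and, for each list, the 3 highest and 3 lowest members and those 2-fold apart. Not all are printed. The files held 27998 identifiers. Symbols shared by several identifiers (56) were kept apart. Coordinates are from GENCODE M21 (mm10) and promoter windows from RefSeq (GRCm38.p6, 250 bases before to 50 after the start). The alternatives tried changed the share of cells, the minimum count, scaling, depth, mitochondrial limit, doublets, score and maturation filter.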

Additional observations from a re-analysis of the deposited data

Results flagged for a closer look

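Ngp, a neutrophil granule protein gene, differed in direction between the libraries. Its log2 ratio of low-cycling over other cells was 1.02 (95% interval 0.66 to 1.37) in the Jumonji library and -5.49 (-10.80 to -2.999) in the Renilla library, and this difference was not tested. In the Jumonji library 84 UMIs lay in 11 low-cycling cells, of which 1 cell held 30, and without that cell the ratio was 0.41. Within the depth range of the low-cycling cells it was 0.17, and a score from the S phase and G2/M lists gave -0.62 in the Renilla library. In the Renilla library 1 UMI lay in 86 low-cycling cells, and 1 of the other cells held 160 of their 301 UMIs.

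Ctss-negative barcodes over the mitochondrial limit, which no comparison used, included some with scores in the low-cycling range. These were 10 of 40 (25%, exact 95% interval 12.7 to 41.2) in the Jumonji library and 2 of 38 (5.26%, 0.644 to 17.7) in the Renilla library. Each library's own score limit was used.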

How the results depend on the processing

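Low-cycling cells are few, so counting error and single cells limit gene values, and genes under about 200 UMIs could not be compared. Depth differs between the sets compared, the score limits differ between libraries, and guide and library cannot be told apart with 1 library each. No paired analysis was possible because each group had 1 library. For the same reason no library could be left out. Of the values under other settings for the main list medians, gene counts and cell medians, 327 stayed within the interval, or for counts within 1.5 times, and 77 did not. These follow, with the called values that changed sign. Sign changes of values whose interval spanned 0 are not all listed, and several stand with the results. Where the cause is not named it was not tested.

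Taking the lowest 10% gave 173 higher and 1046 lower genes in the Renilla library and 74 and 526 in both. The Jumonji medians became -2.79 for S phase genes and -1.22 for the ATF4 list, and the Renilla medians -1.11 for S phase and -2.11 for G2/M genes. The lowest 25% gave 129 higher genes in the Jumonji library, 51 higher and 341 lower in the Renilla library, 20 and 172 in both, and 189 higher Jumonji over Renilla. The medians became -1.47 for S phase genes in the Jumonji library and -0.61, -1.04, -0.19 and -0.28 for S phase, G2/M, ribosome biogenesis and ATF4 genes in the Renilla library.

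A minimum lowered to 100 UMIs (50 between libraries) compares more genes. It gave 378 higher genes in the Jumonji library, 240 higher and 997 lower in the Renilla library, 79 and 506 in both, and 230 and 302 Jumonji over Renilla. A minimum raised to 500 UMIs (200 between libraries) compares fewer. It gave 81 higher and 442 lower in the Jumonji library, 38 and 247 in the Renilla library, 15 and 111 in both, 61 and 51 Jumonji over Renilla, and a Jumonji G2/M median of -1.83. With no minimum beyond 1 UMI, single counts passed the fold. There were 4183 higher and 2661 lower in the Jumonji library, 3857 and 1792 in the Renilla library, 2177 and 894 in both, and 2053 and 1279 Jumonji over Renilla.

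Centring on the median gene gave 401 higher genes in the Jumonji library, 193 in the Renilla library and 95 in both. The Renilla ribosome biogenesis median became -0.22, and that of mitochondrially encoded genes turned to 0.063.

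Thinning every cell to 10000 UMIs and choosing the cells anew left 51 Jumonji and 82 Renilla low-cycling cells and fewer genes over the minimum. It gave 80 higher and 419 lower genes in the Jumonji library, 50 and 257 in the Renilla library, 13 and 90 in both, and 73 and 74 Jumonji over Renilla. The medians became -1.83 for G2/M and -1.15 for ATF4 genes in the Jumonji library, and -0.92 for G2/M and -0.18 for ribosome biogenesis genes in the Renilla library. Keeping both sets within the low-cycling cells' 10th to 90th percentile of depth left 42 Jumonji and 68 Renilla low-cycling cells. It gave 30 higher and 249 lower genes in the Jumonji library, 64 and 425 in the Renilla library, 7 and 85 in both, and 89 lower Jumonji over Renilla. The Jumonji medians became -1.20 for G2/M, -0.60 for ribosome biogenesis and 0.092 for neutrophil genes, and the Renilla G2/M median -1.26.

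A 5% mitochondrial limit moved the other Renilla cells to medians of 25062 UMIs and 4468 genes. Without the filter the Jumonji log2 ratio of Mpo turned to 0.22. A score from the S phase and G2/M lists gave G2/M medians of -3.37 and -2.68 in the Jumonji and Renilla libraries and a Renilla ribosome biogenesis median of -0.58. Without the cells highest in maturation genes there were 29 genes higher in both libraries, the Renilla neutrophil median was 0.48, and the Renilla ratios of Ngp and S100a9 turned to 0.39 and 0.33.

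The following were chosen after seeing the data. The Jumonji score limit in both libraries gave 306 higher and 1677 lower genes in the Renilla library, 83 and 744 in both, and 65 and 16 Jumonji over Renilla. The 32 Renilla cells had a median of 3691 genes and medians of -1.76, -2.32, -0.88 and -0.82 for S phase, G2/M, ribosome biogenesis and ATF4 genes. On the genes of the main comparison, thinning gave 178 higher genes and a G2/M median of -1.13 in the Renilla library. On those genes the depth range gave 107 higher genes in the Jumonji library, 15 in both, a ribosome biogenesis median of -0.66 and a neutrophil median of -0.00026 in the Jumonji library. Of the 206 genes higher in the Jumonji library, 200 kept their sign and 70 their 1.5-fold size within the depth range, and of the 1053 lower ones 1050 and 761 did.

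The Jumonji log2 ratio of Prg2, 3.41, turned to -0.59 with the lowest 10%, to -0.032 after thinning, to -1.03 within the depth range, to -0.27 without the cells highest in maturation genes and to -0.14 without 1 cell. Leaving out Scrublet doublets and equal weight per cell moved none of the main list medians past their interval and none of the counts by 1.5 times.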
